A study of Mus musculus with 10 samples.

Results

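Tnf and 7 interleukin genes (Il1a, Il1b, Il1rn, Il6, Il10, Il16 and Il18) were followed in RNA of mouse brain microglia, with brainstem named for the laser-captured slices. The 8 genes are those with these symbols in the deposited expression table, 8 of 37447 genes. The rule uses their names and no expression value, but they were chosen with earlier results of these data known. The 10 libraries came from 6-week-old mice and fall into 3 groups. Laser microdissection of brain sections gave 4 libraries of GFP-expressing microglia (LCM_GFP, 3 female and 1 male). GFP-expressing microglia sorted by flow cytometry from dissociated tissue gave 3 libraries (FACS_GFP, 2 female and 1 male). Wild-type C57BL/6 microglia sorted in the same way gave 3 libraries (FACS_WT, 3 male). The sources used here do not give the promoter or locus that drives GFP, nor the antibodies or gate used for sorting wild-type cells, and the strain of the GFP mice is not labelled. Libraries are labelled as biological replicates without saying whether each came from 1 animal. Laser-captured tissue was fixed in paraformaldehyde and frozen, and its RNA was taken up with proteinase K and acid phenol. Sorted cells were enriched on Percoll and their RNA was taken up with TRIzol. Capture method, dissociation, Percoll enrichment, fixation and extraction therefore cannot be told apart, and any difference in brain region falls on the same division. Between LCM_GFP and FACS_WT the GFP genotype differs as well, and sex in part. Levels are FPKM, fragments per length of transcript and per number of mapped fragments, so levels can be compared between genes.

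Tumor necrosis factor and interleukin-1 are secreted by activated microglia and act through receptors that switch on NF-kappaB. Interleukin-1 alpha is active as it is made and is released by damaged cells, whereas the precursors of interleukin-1 beta and interleukin-18 are cut by caspase-1 in the inflammasome. The interleukin-1 receptor antagonist, from Il1rn, binds the same receptor without signalling. Interleukin-6 signals through gp130 and STAT3, interleukin-10 is the main anti-inflammatory cytokine of macrophages, and interleukin-16 is a chemoattractant for CD4-positive cells.

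Start-site regions are shown for Il6, Tnf and Il18, which were called lower in LCM_GFP, and for Il1a and Il1b, which were not called. Not being called does not mean unchanged, as every laser-captured Il1a value was below every sorted one. Il16, which was also called, has 3 windows and is not printed. RefSeq windows of 300 bases, from 250 before to 50 after the annotated start (build GRCm38.p6), were found for 7 of the 8 members. Each window shown is printed 5′ to 3′ on the gene's own strand, with motif matches in capitals. The motifs searched on both strands were the kappaB consensus of NF-kappaB, AP-1 (TGANTCA), the cyclic AMP element (TGACGTCA) and the PU.1 core (GAGGAA), and the TATA box (TATAAA) was searched on the gene's strand.
Il6 (chr5:30012864-30013163, plus strand): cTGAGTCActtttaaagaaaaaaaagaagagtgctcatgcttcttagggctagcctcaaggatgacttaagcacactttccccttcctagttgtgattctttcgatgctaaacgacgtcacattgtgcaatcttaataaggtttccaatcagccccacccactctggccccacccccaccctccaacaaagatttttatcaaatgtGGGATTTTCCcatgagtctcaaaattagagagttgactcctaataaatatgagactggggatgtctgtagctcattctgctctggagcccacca
Tnf (chr17:35201958-35202257, minus strand): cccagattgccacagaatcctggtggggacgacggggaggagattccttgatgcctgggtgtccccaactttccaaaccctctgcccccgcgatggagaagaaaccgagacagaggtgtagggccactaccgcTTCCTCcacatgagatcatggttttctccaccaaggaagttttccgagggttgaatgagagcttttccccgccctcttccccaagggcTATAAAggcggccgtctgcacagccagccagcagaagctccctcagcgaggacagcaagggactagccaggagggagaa
Il1a (chr2:129309923-129310222, minus strand): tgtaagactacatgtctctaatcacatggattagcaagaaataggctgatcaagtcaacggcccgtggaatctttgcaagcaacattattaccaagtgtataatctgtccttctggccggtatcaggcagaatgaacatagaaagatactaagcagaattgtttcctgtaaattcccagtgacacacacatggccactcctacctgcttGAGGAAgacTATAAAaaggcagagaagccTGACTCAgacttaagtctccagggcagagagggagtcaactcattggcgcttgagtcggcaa
Il1b (chr2:129371090-129371389, minus strand): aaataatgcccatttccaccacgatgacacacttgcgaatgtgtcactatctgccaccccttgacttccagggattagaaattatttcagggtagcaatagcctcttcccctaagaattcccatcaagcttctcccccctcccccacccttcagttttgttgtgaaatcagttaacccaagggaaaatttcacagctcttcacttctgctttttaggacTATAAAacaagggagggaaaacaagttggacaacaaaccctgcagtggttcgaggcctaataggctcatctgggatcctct
Il18 (chr9:50554450-50554749, plus strand): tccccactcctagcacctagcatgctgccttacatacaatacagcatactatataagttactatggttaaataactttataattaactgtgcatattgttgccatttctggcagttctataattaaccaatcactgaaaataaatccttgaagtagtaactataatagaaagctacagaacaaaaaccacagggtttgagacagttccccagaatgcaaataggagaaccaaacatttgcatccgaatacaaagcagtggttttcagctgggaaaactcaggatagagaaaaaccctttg
The Il6 window held 1 kappaB match, 44 bases before the start, and 1 AP-1 match at its far end. The Tnf window held a PU.1 core, on the opposite strand, 117 bases before the start and a TATA box 29 bases before it. The Il1a window held an AP-1 match, a PU.1 core and a TATA box, and the Il1b window a TATA box 31 bases before the start. The Il18 window held none of these letters, and Il18 spans 27014 bases in GRCm38 but 6565 in the mm9 table, so this window may not lie at the start of the gene model whose level is given. Of the 3 windows of Il16, one held an AP-1 match and another 2 overlapping kappaB matches; of the 3 windows of Il1rn, 1 held an AP-1 match. Over 32851 RefSeq windows of the same length, 8.46% held a kappaB match, 7.81% an AP-1 match, 1.79% a cyclic AMP element, 28.3% a PU.1 core and 8.32% a TATA box. These matches describe letters only.

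Before the members are described, the libraries need a short account. Between 11075 and 12500 genes reached an FPKM of 1 in the laser-captured libraries, against 11706 to 11821 in the sorted libraries. The microglial genes Csf1r and P2ry12 were present in every library, with P2ry12 at 83.7 to 214 FPKM in LCM_GFP, 349 to 357 in FACS_GFP and 327 to 364 in FACS_WT. Summed over 23 microglia genes, none of them at 0 in all libraries of a group, the level was 3204 to 7516 FPKM in LCM_GFP, 11457 to 14212 in FACS_GFP and 13473 to 17411 in FACS_WT. The same sum over 10 neuron genes was 919 to 1977 FPKM in LCM_GFP, 2.17 to 8.46 in FACS_GFP and 1.45 to 1.54 in FACS_WT. Over 10 oligodendrocyte genes it was 2641 to 7553 FPKM in LCM_GFP, 21.2 to 26.5 in FACS_GFP and 23.5 to 32.8 in FACS_WT. Over 10 astrocyte genes it was 474 to 993 FPKM in LCM_GFP, 29.9 to 33.2 in FACS_GFP and 21.8 to 26.0 in FACS_WT, and over 8 endothelial genes 102 to 220 FPKM in LCM_GFP, 19.8 to 25.1 in FACS_GFP and 15.2 to 22.9 in FACS_WT. In bulk samples, fewer cells of a type and less RNA per cell cannot be told apart. In earlier results of these data, laser-captured libraries 1 and 3 stood apart by embryonic globin and cell-cycle genes. The sums given here are over genes picked for that reason and are a description. Summed embryonic globins (Hba-x, Hbb-y and Hbb-bh1) were at 3401 and 1725 FPKM in libraries 1 and 3, against 2.86 and 0.432 in laser-captured libraries 2 and 4 and 0 in each sorted library. The sum over 6 cell-cycle genes was 653 and 141 FPKM in libraries 1 and 3, against 17.9 and 16.4 in libraries 2 and 4. The members' tests and the numbers of genes called are therefore also given with laser-captured libraries 2 and 4 only. The marker and pathway results were fitted with all 4 laser-captured libraries and not repeated in this way.

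The upper cytokine genes kept the same order of level in all sorted libraries. Il1a, Il16, Il18 and Tnf ranked in that order, highest to lowest, in each of the 6 sorted libraries, and Il6, Il1b and Il1rn lay below them. Il1a and Il16 were the closest of the upper genes, at 40.6 FPKM for the lowest sorted Il1a value and 40.5 FPKM for the highest sorted Il16 value, and Il1b and Il1rn overlapped in FACS_GFP. The 8 genes together reached 115 to 133 FPKM in FACS_GFP and 133 to 141 FPKM in FACS_WT. In the laser-captured libraries the same sum was 31.2, 51.9, 39.5 and 5.61 FPKM, and the order differed from library to library. Il1a led in laser-captured libraries 1 and 2, Il1rn in library 3 and Il18 in library 4.

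**Figure D1:**
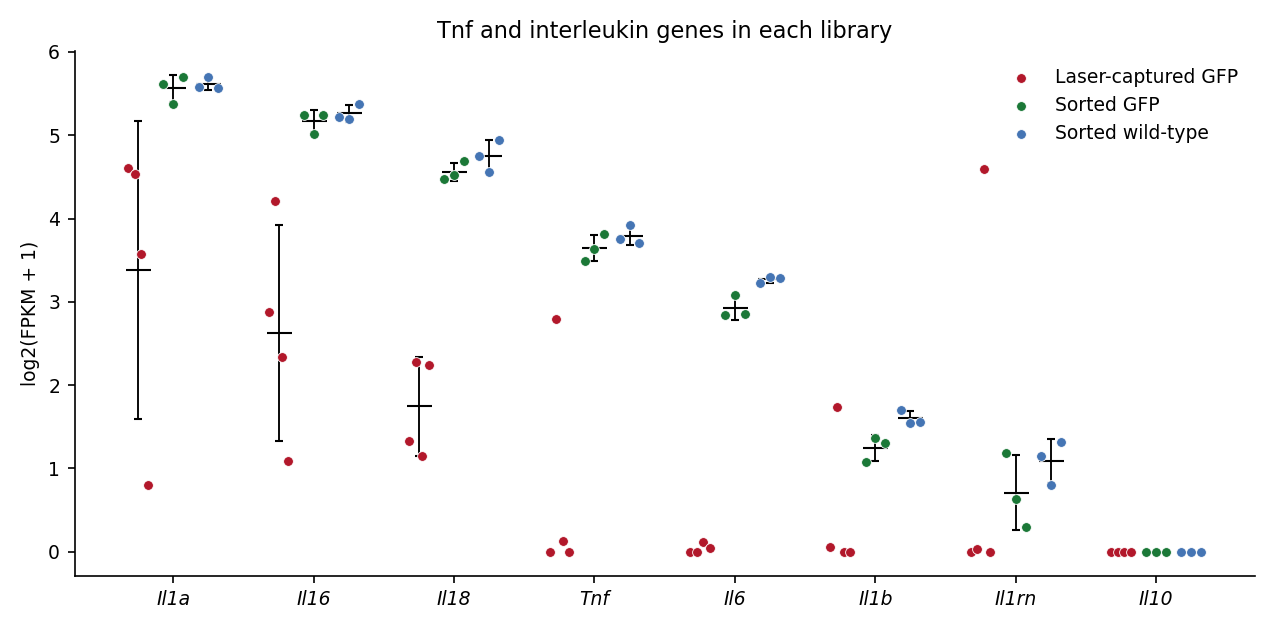
Level of each gene, as log2(FPKM + 1), in every library of the laser-captured GFP (red), sorted GFP (green) and sorted wild-type (blue) groups; black bars show the mean and SD on that scale for groups with no library listed at 0. The laser-captured points of Il1a, Il16, Il18, Tnf and Il6 lie below every sorted point, Il1rn has 1 laser-captured library far above the sorted ones, and Il10 is at 0 throughout.

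Tnf (ENSMUSG00000024401, mm9 chr17:35336326-35338952, minus strand) encodes the founding ligand of the TNF family, and its promoter window is the one with the TATA box at 29 bases. It was listed at 0, 5.91, 0.0957 and 0 FPKM in laser-captured libraries 1 to 4, against 10.28, 11.43 and 13.02 FPKM in FACS_GFP and 12.5, 14.2 and 12.1 FPKM in FACS_WT. Library 2 was the only laser-captured library with a Tnf level above 1, and the laser-captured and sorted values did not overlap. Tnf fell by 2.92 on the log2(FPKM + 1) scale in LCM_GFP relative to FACS_GFP (SE 0.74, 95% interval -4.61 to -1.22, limma adjusted p = 0.0201) and fell by 3.06 relative to FACS_WT (SE 0.74, adjusted p = 0.0162). Without library 2 the difference from FACS_GFP was -3.60 (limma adjusted p = 0.000739). In that fit Tnf entered the test only through the sorted libraries, so it had to be lower. With laser-captured libraries 2 and 4 only, the Tnf call was lost in both comparisons (-2.25, limma adjusted p = 0.0871 against FACS_GFP; -2.40, adjusted p = 0.0689 against FACS_WT). It was also lost without any 1 of the sorted libraries of either group. Variances per gene and group, or scaling to the microglia genes, likewise ended the call in both comparisons. With 3 laser-captured values near 0, the size of the difference depended on the constant added before the logarithm: against FACS_GFP it was -5.14 with 0.1 added (limma adjusted p = 0.0314) and -1.44 with 5 added (adjusted p = 0.0149).

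Il1a (ENSMUSG00000027399, mm9 chr2:129125346-129135708, minus strand) was the most abundant member in sorted microglia. It stood at 23.4, 22.2, 11.0 and 0.737 FPKM in LCM_GFP, against 48.0, 40.6 and 50.8 FPKM in FACS_GFP and 46.9, 50.7 and 46.3 FPKM in FACS_WT. The mean was 14.3 ± 10.6 FPKM in LCM_GFP (SD, n = 4), 46.5 ± 5.25 in FACS_GFP (SD, n = 3) and 48.0 ± 2.41 in FACS_WT (SD, n = 3). Every laser-captured library was below every sorted one, and library 4 was far below the other laser-captured libraries. With only the 2 compared groups in the fit, the difference did not pass the test over all genes: it was -2.18 against FACS_GFP (SE 0.90, 95% interval -4.26 to -0.11, limma adjusted p = 0.0968) and -2.23 against FACS_WT (SE 0.89, adjusted p = 0.0896). In simulated data only 10% to 21% of log2 changes of 2 were recovered against FACS_GFP, so not passing does not show an unchanged level. With all 10 libraries in one fit the Il1a difference passed narrowly, at adjusted p = 0.0468 in limma against FACS_GFP and 0.0433 against FACS_WT. Without library 4 the difference was smaller and passed the threshold, at -1.32 against FACS_GFP (limma adjusted p = 0.0495) and -1.37 against FACS_WT (adjusted p = 0.0461). With libraries 2 and 4 only it did not pass, at -2.90 against FACS_GFP (limma adjusted p = 0.0909) and -2.95 against FACS_WT (adjusted p = 0.0794).

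Il1b (ENSMUSG00000027398, mm9 chr2:129190306-129196875, minus strand) lies 54597 bases from Il1a on the same strand, and its product needs caspase-1 for release in active form. Its level was low: 0.0366, 2.35, 0 and 0 FPKM in LCM_GFP, against 1.11, 1.59 and 1.47 FPKM in FACS_GFP and 2.26, 1.93 and 1.95 FPKM in FACS_WT. Laser-captured library 2 had the highest Il1b level of all 10 libraries, so the groups overlapped. The difference was -0.80 against FACS_GFP (SE 0.45, limma adjusted p = 0.2) and -1.16 against FACS_WT (SE 0.46, adjusted p = 0.0852). Without library 2 it passed, at -1.23 against FACS_GFP (limma adjusted p = 0.00127) and -1.59 against FACS_WT (adjusted p = 0.000961). In those fits Il1b entered the test only through the sorted libraries, so it had to be lower. With all 10 libraries in one fit, library 2 included, the difference was at a limma adjusted p of 0.15 against FACS_GFP and passed narrowly against FACS_WT (adjusted p = 0.0487). With libraries 2 and 4 only the difference was -0.38 against FACS_GFP (limma adjusted p = 0.596) and -0.73 against FACS_WT (adjusted p = 0.307). Because 1 is added before the logarithm, a gene at these sorted levels cannot show a large drop.

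Il1rn (ENSMUSG00000026981, mm9 chr2:24192373-24207014, plus strand), which encodes the receptor antagonist, lies on the same chromosome at a distance. It was listed at 0, 0.0263, 23.1 and 0 FPKM in LCM_GFP, against 1.28, 0.556 and 0.232 FPKM in FACS_GFP and 1.21, 0.740 and 1.50 FPKM in FACS_WT. Laser-captured library 3 alone was above the sorted libraries, and the other laser-captured libraries were below them. Of the laser-capture comparisons, Il1rn passed the filter only against FACS_WT, where the difference was 0.07 with a 95% interval of -2.42 to 2.56 (limma adjusted p = 0.967), an interval too wide to fix a direction.

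Il6 (ENSMUSG00000025746, mm9 chr5:30339701-30346508, plus strand) was at the floor in the laser-captured libraries. It was listed at 0, 0, 0.0876 and 0.0324 FPKM in LCM_GFP, against 6.16, 7.48 and 6.20 FPKM in FACS_GFP and 8.34, 8.86 and 8.74 FPKM in FACS_WT. No laser-captured library reached an FPKM of 0.1, whereas every sorted library was above 6. Il6 fell by 2.88 in LCM_GFP relative to FACS_GFP (SE 0.27, 95% interval -3.51 to -2.26, limma adjusted p = 0.000326) and fell by 3.23 relative to FACS_WT (SE 0.31, adjusted p = 0.000344). Il6 entered the test only through the sorted libraries, so it had to be lower in LCM_GFP. With LCM_GFP at the floor, the size is set by the constant added before the logarithm: against FACS_GFP it was -5.73 with 0.1 added (95% interval -6.97 to -4.50) and -1.21 with 5 added (95% interval -1.49 to -0.92). With laser-captured libraries 2 and 4 only the difference was -2.90 against FACS_GFP (limma adjusted p = 0.00208) and -3.25 against FACS_WT (adjusted p = 0.00288). The window shown for Il6 is the one with both a kappaB and an AP-1 match.

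Il10 (ENSMUSG00000016529, mm9 chr1:132916422-132921551, plus strand) was listed at 0 in all 10 libraries and was not tested. A value of 0 in this table need not mean absent RNA, since 33 of 37 mitochondrial genes were also listed at 0 in every library. In the authors' deposited table Il10 had the status NOTEST in each comparison. The receptor genes for interleukin-10 were measured, and are given with the pathway genes.

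Il16 (ENSMUSG00000001741, mm9 chr7:90791358-90894236, minus strand) was second in level in the sorted libraries. It stood at 6.33, 17.6, 4.04 and 1.12 FPKM in LCM_GFP, against 37.0, 31.4 and 36.9 FPKM in FACS_GFP and 36.3, 35.5 and 40.5 FPKM in FACS_WT. The groups did not overlap, and laser-captured library 2 came closest to the sorted libraries. Mean levels were 7.27 ± 7.20 FPKM in LCM_GFP (SD, n = 4), 35.1 ± 3.22 in FACS_GFP (SD, n = 3) and 37.4 ± 2.71 in FACS_WT (SD, n = 3). Il16 fell by 2.54 relative to FACS_GFP (SE 0.71, 95% interval -4.17 to -0.92, limma adjusted p = 0.0284) and fell by 2.64 relative to FACS_WT (SE 0.71, adjusted p = 0.0246). The call depended on the setting and was lost in 11 of 18 alternative settings against FACS_GFP and in 8 of 17 against FACS_WT. With libraries 2 and 4 only it was lost, at -2.52 against FACS_GFP (limma adjusted p = 0.0845) and -2.61 against FACS_WT (adjusted p = 0.0709). The Il16 call was also lost without laser-captured library 3 against FACS_GFP, or without any 1 of the sorted libraries of either group. Median ratio scaling, scaling to the microglia genes, variances per gene and group and a replicate block each ended it in both comparisons. Quantile normalization, or no filter on low values, ended it against FACS_GFP only.

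Il18 (ENSMUSG00000039217, mm9 chr9:50383378-50389942, plus strand), whose product is matured by caspase-1 like that of Il1b, had the smallest spread among the laser-captured libraries of the members detected in all of them. It stood at 1.50, 3.83, 1.21 and 3.72 FPKM in LCM_GFP, against 21.2, 22.1 and 24.7 FPKM in FACS_GFP and 26.0, 22.7 and 29.8 FPKM in FACS_WT. The groups were far apart, at 2.57 ± 1.40 FPKM in LCM_GFP (SD, n = 4), 22.7 ± 1.82 in FACS_GFP (SD, n = 3) and 26.1 ± 3.60 in FACS_WT (SD, n = 3). Il18 fell by 2.82 relative to FACS_GFP (SE 0.48, 95% interval -3.91 to -1.73, limma adjusted p = 0.00346) and fell by 3.01 relative to FACS_WT (SE 0.49, adjusted p = 0.00274). With libraries 2 and 4 only the difference was -2.31 against FACS_GFP (limma adjusted p = 0.00284) and -2.50 against FACS_WT (adjusted p = 0.00362).

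Of the members tested, 4 of 6 (Tnf, Il6, Il16 and Il18) were lower in LCM_GFP than in FACS_GFP at a limma adjusted p under 0.05 and 0 were higher, where 19.6% of all 13403 tested genes were lower and 12.5% higher. Against FACS_WT, the same 4 of 7 were lower and 0 higher, where 19.1% of 13415 genes were lower and 12.3% higher. Each called member could enter the test through the sorted libraries alone, so these counts are a description. Values did not overlap between the groups for 5 members (Tnf, Il1a, Il6, Il16 and Il18) in either comparison, against 31.2% of tested genes with every laser-captured library below every FACS_GFP library and 29.6% with every one below every FACS_WT library. The median difference was -2.68 over the 6 members tested against FACS_GFP, -1.59 over the 23 microglia genes and -0.60 over all tested genes; against FACS_WT it was -2.64 over 7 members, -1.88 over microglia genes and -0.59 over all. The comparisons with FACS_GFP and with FACS_WT use the same 4 laser-captured libraries and are not independent. Sex was entered as a covariate only against FACS_GFP, where 4 members were again lower. Each FACS_WT library was from a male.

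**Figure D2:**
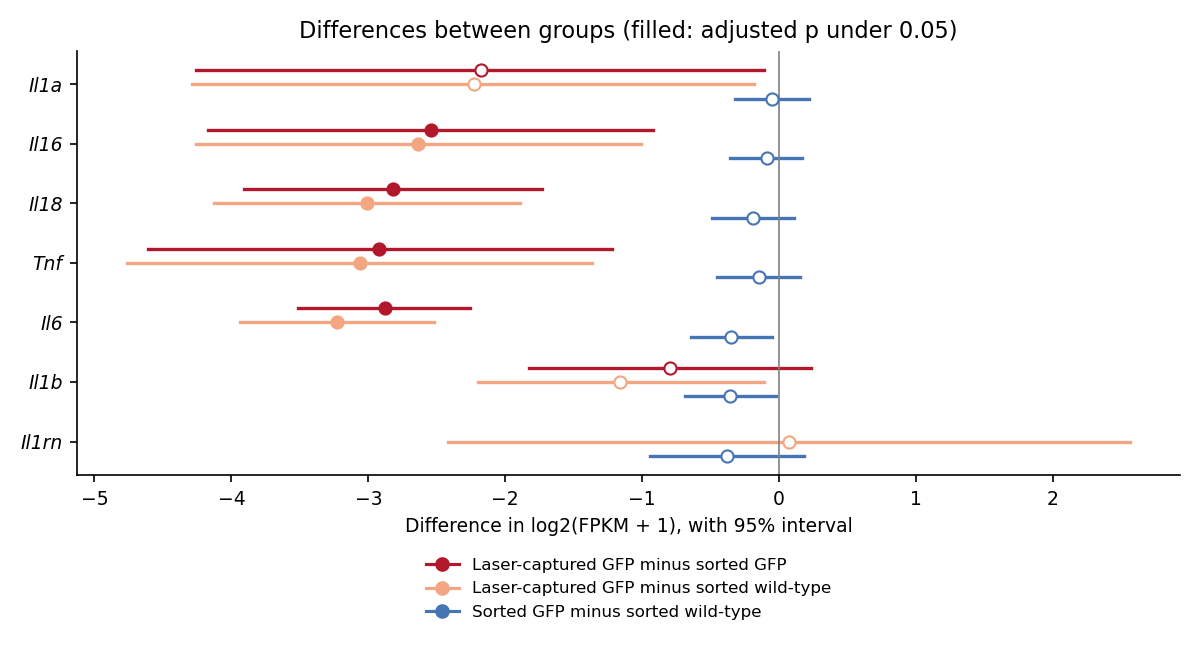
Difference in log2(FPKM + 1) with its 95% interval for each member in the 3 comparisons, with filled points where the limma adjusted p was under 0.05. The 4 members called (Il16, Il18, Tnf and Il6) lie between -2.54 and -3.23 in both laser-capture comparisons, and the differences between sorted GFP and sorted wild-type lie between -0.38 and -0.05.

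The direction of these results was set beside the fall in microglia genes. In LCM_GFP, 16 of 23 microglia genes were lower than in FACS_GFP and 20 of 23 were lower than in FACS_WT, 0 were higher, and 9 of 10 neuron genes and 9 of 10 oligodendrocyte genes were higher in both comparisons. When each library was scaled to its microglia genes, Tnf was at -2.06 (limma adjusted p = 0.0862), Il18 at -1.37 (adjusted p = 0.16), Il16 at -1.06 (adjusted p = 0.349) and Il1a at -0.69 (adjusted p = 0.665) against FACS_GFP, so none of these 4 was called. Il6 was at -2.08 (limma adjusted p = 0.00196), close to the value of Tnf. Scaling cannot lift values at the floor, so the Il6 call on this scale was fixed by its entry through the sorted libraries and does not set Il6 apart from the other members. Scaling to microglia genes moved the median of all tested genes to 0.79 against FACS_GFP and 0.97 against FACS_WT, and median ratio scaling moved it to -0.14 against FACS_GFP and -0.13 against FACS_WT. Of the genes called in LCM_GFP against FACS_GFP, 39.0% were higher as reported, 57.9% with median ratio scaling, 51.6% with quantile normalization and 81.4% scaled to microglia genes; against FACS_WT these shares were 39.2%, 57.6%, 51.5% and 85.5%. The part of other cells' RNA in the members' lower levels was not tested.

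The laser-captured libraries differed in which members followed the microglia genes. The mean difference of the microglia genes from FACS_GFP was -2.50, -0.96, -1.12 and -2.12 on the log2(FPKM + 1) scale in laser-captured libraries 1 to 4. Il6 was at -2.92, -2.92, -2.80 and -2.88 in the same libraries, nearly the same whatever the microglia genes did, as its level was at the floor in each. In library 2, Tnf was at -0.86, Il1a at -1.03 and Il16 at -0.95, each close to the microglia mean, while Il6 and Il18 (-2.29) were further below than all 23 microglia genes. In library 3, Tnf, Il6, Il16 and Il18 were all further below than every microglia gene. In library 4, Il1a was at -4.77 and Il16 at -4.09, further below than every microglia gene, while Il18 was at -2.32, near the mean. In library 1, Il1a was at -0.96, above 22 of the 23 microglia genes. Tnf, Il6, Il16 and Il18 lay within the range of the microglia genes in library 1, as did Tnf and Il6 in library 4.

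**Figure D3:**
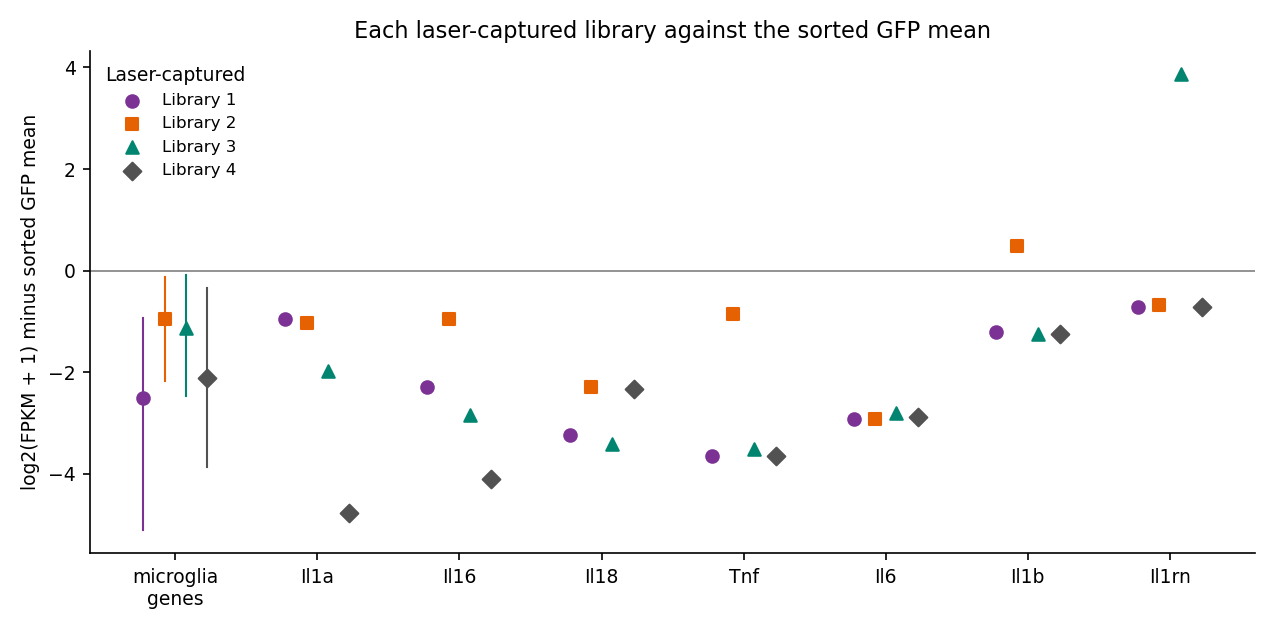
Each laser-captured library's log2(FPKM + 1) minus the mean of the sorted GFP libraries, for each member and, at the left, for the 23 microglia genes (marker at their mean, line from lowest to highest). Il6 sits near -2.9 in every library, Il1a is spread from -0.96 to -4.77, and Il1rn in library 3 is at 3.88.

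Immediate early genes, which are switched on within minutes of a stimulus and include the AP-1 subunits, are known to respond to dissociation of tissue. Their sum over 12 genes was 55.1 to 132 FPKM in LCM_GFP, 1696 to 2397 in FACS_GFP and 1773 to 3072 in FACS_WT, and Fos and Fosb were listed at 0 in at least 1 laser-captured library. In LCM_GFP, 11 of the 12 were lower than in either sorted group, with a median difference of -4.24 against FACS_GFP and -4.29 against FACS_WT. Among blood cell markers, the T-cell genes Cd3e and Cd3g were listed at 0 in every library and S100a8 in every LCM_GFP and FACS_GFP library. S100a8 reached 5.42 FPKM in FACS_WT. Ccr2 was at 0.101 to 2.66 FPKM in LCM_GFP, 0.982 to 1.67 in FACS_GFP and 0.697 to 0.928 in FACS_WT. Lck and Cd79b were the lymphocyte genes tested against FACS_GFP, and both were lower in LCM_GFP, as were 19.6% of all tested genes. Against FACS_WT only Cd79b was tested, and it was lower. The sum over 11 lymphocyte genes was 0.025 to 31.2 FPKM in LCM_GFP, 35.8 to 53.9 in FACS_GFP and 37.9 to 75.2 in FACS_WT, and over 11 monocyte and neutrophil genes it was 78.5 to 224 FPKM in LCM_GFP, 286 to 336 in FACS_GFP and 278 to 369 in FACS_WT. Over 8 perivascular macrophage genes the sum was 45.5 to 356 FPKM in LCM_GFP, 311 to 363 in FACS_GFP and 234 to 268 in FACS_WT. The part of any of these in the cytokine differences was not tested.

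No member passed the test between sorted GFP and sorted wild-type microglia. Of 7 members tested with limma, 0 were called higher or lower and 2 (Il6 and Il1b) had an unadjusted p under 0.05, where 0.0762% of 11814 tested genes were called lower and 0.0339% higher. Over all genes these were 9 and 4 genes, with 1552 at an unadjusted p under 0.05. The interval of the difference was -0.45 to 0.15 for Tnf, -0.32 to 0.22 for Il1a, -0.36 to 0.17 for Il16 and -0.49 to 0.11 for Il18. Il6 and Il1b were lower in every FACS_GFP library than in every FACS_WT library, as were 9.29% of all tested genes. For Il6 the difference was -0.35 (95% interval -0.64 to -0.05, limma adjusted p = 0.333), and for Il1b it was -0.36 (95% interval -0.69 to -0.02, limma adjusted p = 0.358). Il1rn was at -0.38 with an interval of -0.94 to 0.18. As reported, 30.8% of the called genes were higher in FACS_GFP; the share was 38.5%, 42.9% and 65.2% with median ratio scaling, quantile normalization and scaling to microglia genes, with no member called under any of them. Of the FACS_GFP libraries 1 of 3 came from a male, against 3 of 3 FACS_WT libraries, so sex and genotype cannot be fully told apart.

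For laser-captured over sorted GFP microglia, the authors' deposited table gave a log2 fold change of -8.38 for Il6 (q = 0.101), -3.71 for Il18 (q = 0.312), -3.21 for Tnf (q = 0.84), -2.65 for Il16 (q = 0.737), -2.16 for Il1a (q = 0.421) and -1.54 for Il1b (q = 1). For laser-captured over wild-type microglia, with the sign of the authors' deposited table turned, the values were -8.71 for Il6 (q = 0.0776), -3.88 for Il18 (q = 0.262), -3.29 for Tnf (q = 0.817), -2.70 for Il16 (q = 0.72), -2.15 for Il1a (q = 0.437) and -2.05 for Il1b (q = 1). No member had a q under 0.05 in any of the 3 comparisons of the authors' deposited table. For Il1rn, high in laser-captured library 3 alone, the authors' deposited table gave 2.65 for laser-captured over sorted GFP microglia (q = 1) and, with the sign turned, 1.95 over wild-type microglia (q = 1). Its scale for low values is not stated, so its fold changes are not set against those on the log2(FPKM + 1) scale.

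The genes that mature these cytokines and carry their signals were also examined. Their counts stand beside 19.6% of all tested genes lower in LCM_GFP than in FACS_GFP, 19.1% lower than in FACS_WT, and 16 and 20 of 23 microglia genes lower (medians -1.59 and -1.88). After scaling to the microglia genes, which left 4.04% of all genes lower against FACS_GFP and 3.48% against FACS_WT, Casp4, Irak4 and Il27 were the pathway genes called lower in both comparisons, Il33 was higher in both and Il1rap was higher against FACS_WT. This scaling of the lists was added after seeing the data, and each of these lower genes could enter the test through the sorted libraries alone. Of 10 tested genes of the inflammasome and of cytokine processing (11 listed), 5 were lower and 0 higher in LCM_GFP than in FACS_GFP, with a median difference of -2.46; against FACS_WT, 5 were again lower and the median was -2.55. Casp4, an inflammasome caspase that senses lipopolysaccharide inside the cell, was at 0 to 4.96 FPKM in LCM_GFP, against 44.0 to 45.2 FPKM in FACS_GFP and 36.6 to 50.6 FPKM in FACS_WT. It fell by 4.18 relative to FACS_GFP (limma adjusted p = 0.00335) and fell by 4.11 relative to FACS_WT (adjusted p = 0.00369). Nlrp3, the sensor of the best known inflammasome, averaged 7.34 ± 6.36 FPKM in LCM_GFP (SD, n = 4), 40.9 ± 1.90 in FACS_GFP (SD, n = 3) and 40.6 ± 4.26 in FACS_WT (SD, n = 3), and fell by 2.66 relative to FACS_GFP (limma adjusted p = 0.0169) and fell by 2.65 relative to FACS_WT (adjusted p = 0.0173). Gsdmd, which encodes the protein that forms the pores through which interleukin-1 beta leaves the cell, fell by 3.33 relative to FACS_GFP (limma adjusted p = 0.0148) and fell by 3.39 relative to FACS_WT (adjusted p = 0.014). Adam17, the protease that sheds TNF from the cell surface, averaged 12.1 ± 3.52 FPKM in LCM_GFP (SD, n = 4) and 67.2 ± 2.20 in FACS_GFP (SD, n = 3), and fell by 2.42 (limma adjusted p = 0.00236). The other called gene of the list was Nlrp1a. Casp1 itself, which cuts the precursors of both interleukins, ranged from 0.0925 to 35.5 FPKM in LCM_GFP, against 38.5 to 44.9 in FACS_GFP, and did not pass (-2.71, limma adjusted p = 0.0802).

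Receptor genes gave a mixed picture. In the list of interleukin-1 and interleukin-18 receptors and binding proteins, 5 of 9 genes were tested and 1, Il1rl1 (the interleukin-33 receptor), was lower in LCM_GFP than in FACS_GFP, at 0 to 2.92 FPKM in LCM_GFP and 10.9 to 19.2 in FACS_GFP (difference -2.81, limma adjusted p = 0.00859). Against FACS_WT 0 of the 5 passed at a limma adjusted p under 0.05, with 2 of them, Il1rl1 and Il1rap, under 0.05 before adjustment. The list median was 0.06 against FACS_GFP and 0.21 against FACS_WT, above the median of all tested genes in both. Il1r1, the signalling receptor of interleukin-1, was at 0.194 to 3.12 FPKM in LCM_GFP, 0.629 to 1.31 in FACS_GFP and 0.783 to 1.27 in FACS_WT, a difference of 0.27 from FACS_GFP (limma adjusted p = 0.673). Of 11 tested genes of TNF receptors and their signalling, 5 were lower in LCM_GFP in both comparisons, with medians of -1.69 against FACS_GFP and -1.82 against FACS_WT. They were Tnfrsf1b, Traf5, Fadd, Casp8 and Birc3. Tnfrsf1b, the TNF receptor typical of immune cells, averaged 11.1 ± 1.37 FPKM in LCM_GFP (SD, n = 4), 42.6 ± 4.34 in FACS_GFP (SD, n = 3) and 44.0 ± 8.26 in FACS_WT (SD, n = 3) and fell by 1.85 relative to FACS_GFP (limma adjusted p = 0.00639) and fell by 1.88 relative to FACS_WT (adjusted p = 0.0073). Tnfrsf1a, the broadly expressed TNF receptor, did not pass (-1.67 against FACS_GFP, limma adjusted p = 0.0794).

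In the 2 remaining signalling lists no gene was called higher in LCM_GFP, and both list medians were nearer to 0 than the microglia gene median. In the interleukin-1 and Toll receptor signalling list 4 of 10 tested genes, Irak2, Irak3, Irak4 and Tab2, were lower in LCM_GFP in both comparisons, with medians of -1.18 against FACS_GFP and -1.12 against FACS_WT. Irak4, the kinase that starts signalling from these receptors, averaged 1.58 ± 1.56 FPKM in LCM_GFP (SD, n = 4) and 22.7 ± 1.55 in FACS_GFP (SD, n = 3), and fell by 3.41 (limma adjusted p = 0.00359). In the list of interleukin-6 and interleukin-10 receptors and their signalling 6 of 10 tested genes were lower in both, the receptor chains Il6ra, Il10ra and Il10rb and the signalling genes Jak1, Tyk2 and Socs3, with medians of -1.30 against FACS_GFP and -1.37 against FACS_WT. Il10ra, the ligand-binding chain for interleukin-10, averaged 9.94 ± 5.94 FPKM in LCM_GFP (SD, n = 4), 38.3 ± 2.18 in FACS_GFP (SD, n = 3) and 37.7 ± 4.76 in FACS_WT (SD, n = 3). Il6ra averaged 19.8 ± 8.25 FPKM in LCM_GFP (SD, n = 4), 56.7 ± 1.56 in FACS_GFP (SD, n = 3) and 64.0 ± 2.63 in FACS_WT (SD, n = 3). Cd9, named as a receptor for interleukin-16 in human mast cells, fell by 2.49 relative to FACS_GFP (limma adjusted p = 0.0365) and fell by 2.84 relative to FACS_WT (adjusted p = 0.0219), while Cd4, the other listed receptor, was not tested.

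Other interleukins and TNF superfamily ligands were mostly below the filter, with 7 of 36 matched genes tested against FACS_GFP and 8 against FACS_WT. Tnfsf13b, the B-cell survival factor BAFF, averaged 3.64 ± 2.62 FPKM in LCM_GFP (SD, n = 4), 32.8 ± 0.36 in FACS_GFP (SD, n = 3) and 37.8 ± 1.57 in FACS_WT (SD, n = 3), and fell by 3.05 relative to FACS_GFP (limma adjusted p = 0.0048) and fell by 3.25 relative to FACS_WT (adjusted p = 0.00367). In all, 5 of these ligands were lower against FACS_GFP (Il15, Il27, Tnfsf10, Tnfsf13 and Tnfsf13b), and 6 against FACS_WT, where Tnfsf9 was added. Tnfsf10 was at 0.00568 to 0.837 FPKM in LCM_GFP, so it passed the filter only through the sorted libraries and had to be lower. Il15, with a mean of 1.15 FPKM and a highest value of 3.55 in LCM_GFP, could not pass without the sorted libraries either. The same held for Irak3 (mean 0.57, highest 2.22) and Traf5 (mean 1.87, highest 6.33) of the signalling lists. Il33, an alarmin of the interleukin-1 family made by oligodendrocytes and astrocytes in brain, was the 1 ligand higher in LCM_GFP, at 1.47 to 8.94 FPKM. It was listed at 0 in every FACS_GFP library and at 0 to 0.0108 FPKM in FACS_WT, so it could pass only through LCM_GFP (difference 2.36 against both, limma adjusted p = 0.00778 against FACS_GFP and 0.008 against FACS_WT). No listed gene of any of these lists was called between FACS_GFP and FACS_WT.

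**Figure D4:**
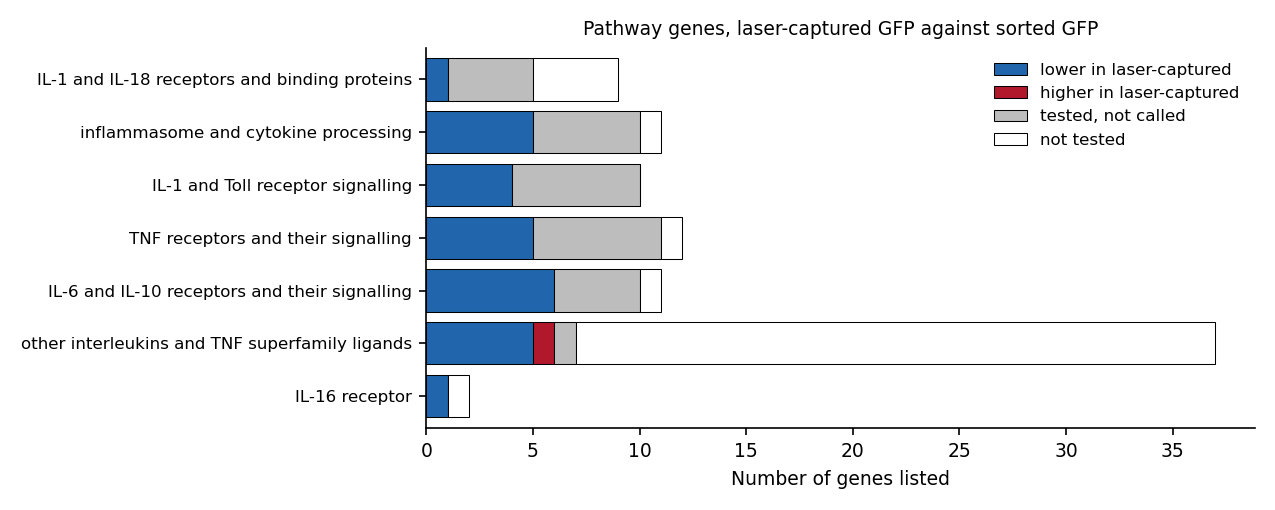
Number of genes in each pathway list that were lower (blue), higher (red) or tested but not called (grey) in laser-captured GFP against sorted GFP microglia, with untested genes in white. Blue fills 5 of the 11 listed genes for the inflammasome and 1 of 9 for the interleukin-1 and interleukin-18 receptors, and the 1 red gene is Il33.

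The genes whose pattern over the 10 libraries was most like that of a member were found by the root mean square difference of log2(FPKM + 1), each gene centred on its mean, among 11734 genes. These are descriptions over libraries that share their groups. For Tnf they included Rbks and Ehbp1l1 (both 0.29), for Il6 Spsb2, Nrbf2 and Trappc6a (0.16, 0.17 and 0.18), and for Il18 Polr1e, Slc25a17 and Cr1l (0.14, 0.15 and 0.15). For Il1a they were Syk, Rps6ka1 and Lpcat1 (0.38, 0.39 and 0.40), and for Il16 Wdr70, Itgb2 and Arhgef6 (0.24, 0.30 and 0.31). For Il1b they were Slc25a2, Chn2 and Mst1 (0.15, 0.20 and 0.20), each highest or near its sorted level in laser-captured library 2. For Il1rn they were Rnf113a1, Lrriq3 and Acad12 (0.35, 0.38 and 0.40), which like Il1rn stood high in laser-captured library 3 alone, with Rnf113a1 at 29.4 FPKM. Between members, Il6 and Il18 were closest (0.38), then Tnf and Il16 (0.50) and Il1a and Il16 (0.54), and Tnf and Il1rn were farthest apart (2.31). The neighbours Il1a and Il1b were at 1.08.

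Other transcripts overlap some members, and the sources used here do not say whether counting used the strand. Il1a overlaps Gm14023 on the opposite strand, which was at 0.105 to 0.656 FPKM in LCM_GFP, 4.93 to 5.34 in FACS_GFP and 4.63 to 7.03 in FACS_WT. Il16 overlaps Stard5 on the opposite strand, at 1.26 to 13.2 FPKM in LCM_GFP, 10.4 to 12.6 in FACS_GFP and 12.1 to 13.6 in FACS_WT. Reads of Il1a and Il16 may thus include reads of these genes.

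**Figure D5:**
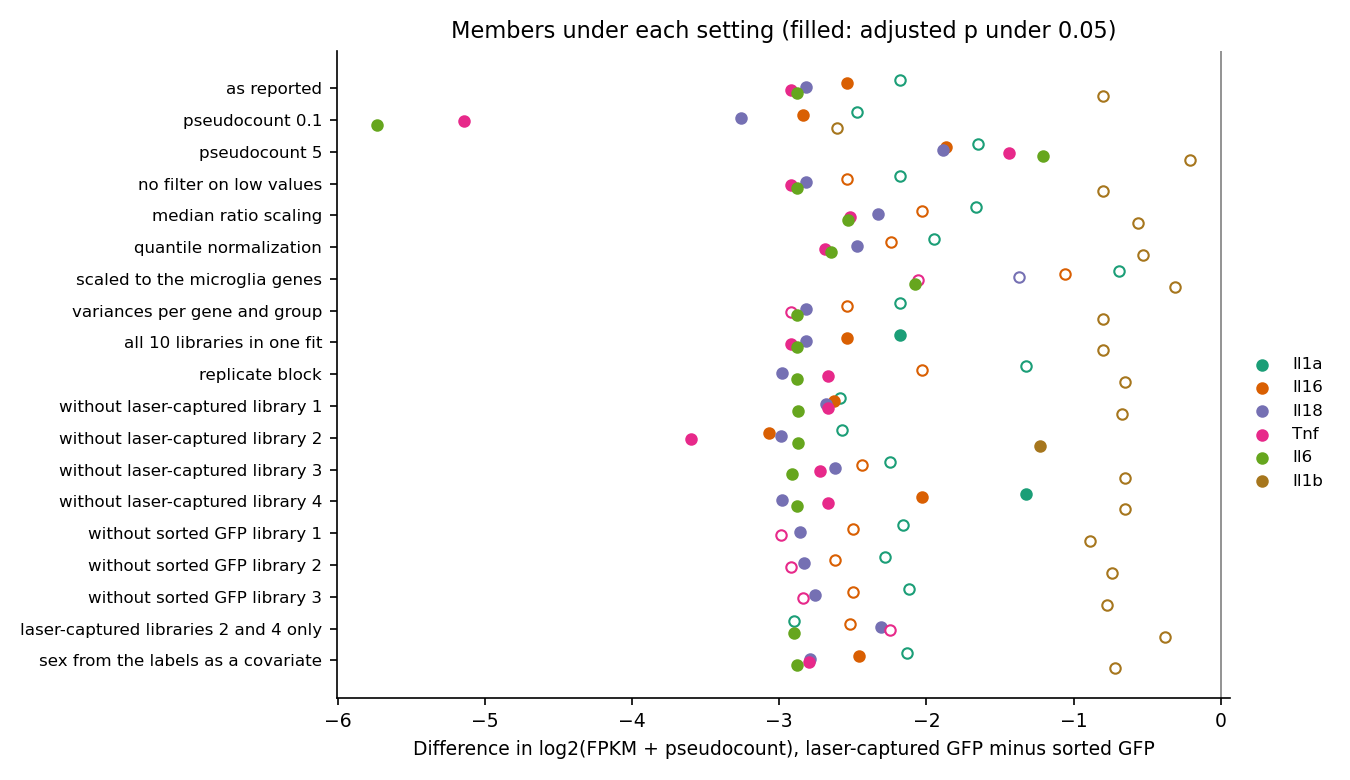
Difference in log2 between laser-captured and sorted GFP microglia for 6 members as reported and under each of 18 alternative settings, with filled points where the adjusted p was under 0.05. Il6 is filled wherever it was tested and Il18 in all settings but the scaling to microglia genes, while Il16 and Tnf turn open in several; no point lies above 0.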

How the data were processed

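The submitters' processing notes name mm9 as the build the authors mapped to, and Cufflinks 2.0.2, TopHat2 2.0.4, Bowtie2 2.0.0 and CASAVA 1.8.2 as their tools; annotation, strand setting and any scaling between libraries are not given in the sources used here. Per the file headers, the deposited expression table holds FPKM values of 37447 genes in 10 libraries. A second deposited table, in Cuffdiff layout per the file headers, holds the authors' log2 fold change (treated here as a score), p-value and q-value for each comparison. No counts are given and depth is unknown. Low values of single-exon genes were multiplied by gene length and by a range of trial depths. At the best trial depth of each library only 49.9% to 61.6% of the products fell within 0.2 of a whole number. Reads were therefore not recovered. Because 13661 genes were at 0 in every library, a 0 is written as listed at 0.

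Each comparison was fitted by limma 3.58.1 (trend and robust options, statmod 1.5.0, R 4.3.3) to log2(FPKM + 1) with only its 2 groups, over genes reaching an FPKM of 1 in 3 or more of its libraries. Calls are two-sided at a Benjamini-Hochberg adjusted p under 0.05 over all tested genes. This scale understates changes of low genes. The fit was tested on simulated data, where 10.1% of calls in LCM_GFP against FACS_GFP (13956 genes) and 2.7% against FACS_WT (13977 genes) were false with 1 SD for both groups. With each group's own SD the false share was 21% (13601 genes) and 18.6% (13550 genes), and in FACS_GFP against FACS_WT it was 9.81% (11974 genes) and 16.4% (11952 genes). More calls may thus be false than the 0.05 threshold implies, most of all where the spread differs between groups. Of 100 genes changed by 2, 10% (1 SD) and 21% (own SD) were recovered in LCM_GFP against FACS_GFP. Against FACS_WT these shares were 9% and 22%, so a gene that did not pass may still differ. The simulations changed 100 genes by 2 and 100 by 4, whereas 32.1% of genes were called in the data against FACS_GFP. The shares may therefore be different in the data. The p-values measure the spread between these libraries. All 8 members are named, with the 3 genes nearest in pattern (1 is not reported here) and up to 4 called genes of each pathway list by level; further genes were chosen after their values were seen. The members and lists were chosen with earlier results of these data known. Tables and figures used pandas 2.3.3, numpy 2.4.6 and matplotlib 3.10.9 (Python 3.11.15).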

Additional observations from a re-analysis of the deposited data

Results flagged for a closer look

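Of 7 members with any value above 0, 3 had a laser-captured library far from the others of its group by Dixon's ratio, the gap to the nearest library divided by the range, at its 95% critical value. Among genes that reached an FPKM of 1 in some laser-captured library, 24.3% (3825 of 15768) had 1 library standing above the others in this way, so such libraries are common in this group. Tnf was flagged at 5.91 FPKM in laser-captured library 2, with the nearest other library at 0.0957 FPKM and a ratio of 0.984. Il1b was flagged in the same library at 2.35 FPKM, with the nearest at 0.0366 FPKM and a ratio of 0.984. Il1rn was flagged at 23.1 FPKM in laser-captured library 3, with the nearest at 0.0263 FPKM and a ratio of 0.999. Library 2 also had the highest summed microglia genes of the laser-captured group, at 7516 FPKM, and library 3 the next, at 7049 FPKM, against 3239 and 3204 FPKM in libraries 1 and 4. The part of these sums in the flagged values was not tested.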

How the results depend on the processing

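No called member changed direction under any alternative run. In LCM_GFP against FACS_GFP (1681 genes higher, 2624 lower, 4 members lower), genes lower were 1357 with median ratio scaling and 541 scaled to microglia genes, with 1 member lower (Il6, at the floor in LCM_GFP). All 10 libraries in one fit gave 5 members lower, adding Il1a. Variances per gene and group gave 957 higher, 1388 lower and 2 members, and laser-captured libraries 2 and 4 only gave 901, 4084 and 2. Without replicates in turn the ranges were 738 to 2034 higher, 304 to 3400 lower and 1 to 5 members; each fit without a FACS_GFP library left 1 member called, Il18, with Il6 then below the filter. In LCM_GFP against FACS_WT (1649 higher, 2558 lower, 4 members lower), median ratio scaling gave 1349 lower, and scaling to microglia genes gave 2754 higher, 467 lower and 1 member. Variances per gene and group gave 934, 1362 and 2, libraries 2 and 4 only gave 888 higher and 2 members lower, and all 10 libraries in one fit gave 6 members lower, adding Il1a and Il1b. Without replicates in turn the ranges were 763 to 1990 higher, 326 to 3267 lower and 1 to 5 members. In FACS_GFP against FACS_WT (4 higher, 9 lower, 0 members), no filter gave 2 and 5, quantile normalization 6 higher, scaling to microglia genes 15 higher, variances per gene and group 0 and 0, and all 10 libraries 0 and 3; without replicates in turn 2 to 10 were higher and 2 to 12 lower. Fewer libraries or genes enter some of these fits; otherwise the cause was not tested.

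Replicate numbers did not pair the libraries: deviations of same-numbered libraries correlated at -0.03 to 0.00 between LCM_GFP and either sorted group and at -0.04 to 0.11 between the sorted groups. With a replicate block, members lower were 3 in both laser-capture comparisons, without Il16 (limma adjusted p = 0.0649 against FACS_GFP and 0.0576 against FACS_WT), genes higher and lower were 1437 and 1933 against FACS_GFP and 1427 and 1907 against FACS_WT, and 9 genes were higher in FACS_GFP against FACS_WT. The constant added before the logarithm changed no member's call but set the size for low values: with 0.1 or 5 added in place of 1, Il6 was at -6.12 or -1.44 and Tnf at -5.30 or -1.55 against FACS_WT, and Il1b at -2.61 or -0.21 against FACS_GFP. Levels below about 1 FPKM, such as most laser-captured values of Tnf, Il6, Il1b and Il1rn, are limited by depth, which is unknown.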
